A study of Mus musculus with 5 samples.

Results

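A set of 10 genes of fatty acid uptake, binding and activation was examined in tibialis anterior (TA) muscle, a fast-twitch muscle of the mouse lower leg. They were chosen by gene name, with earlier results of these data known, and make up 10 of the 17015 genes in the expression table. All 10 passed the expression minimum and were among the 12148 genes tested. By role they are Lpl, which releases fatty acids from circulating triglyceride, the uptake genes Cd36, Slc27a1 and Slc27a4, the binding protein gene Fabp3, and the activation genes Acsl1, Acsl3, Acsl4, Acsl5 and Acsl6. The study asked what the loss of RIP140, a nuclear receptor coregulator encoded by Nrip1, does to gene expression in skeletal muscle.

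The samples were 3 libraries labelled WT control and 2 labelled skmNrip1-/-, from TA muscle of sedentary male mice aged 8 weeks. In skmNrip1-/- mice a Cre recombinase under the myogenin promoter deletes, in skeletal muscle, the floxed exon that holds the whole coding sequence of Nrip1, so endothelial, fat and blood cells of the muscle are not targeted. The floxed mice were on C57BL/6J and were bred with C57BL/6JN Cre mice. By the study's methods, controls were Cre-negative littermates. Each library is treated as 1 mouse, as the labels give no pooling, and p-values measure only the spread between these 5 libraries.

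Long-chain fatty acids reach muscle fibres either bound to albumin or in triglyceride-rich lipoproteins, which lipoprotein lipase hydrolyses at the capillary wall. CD36 and the fatty acid transport proteins (FATP) aid their passage across the plasma membrane, and the heart-type binding protein FABP3 carries them through the cytosol. Long-chain acyl-CoA synthetases of the ACSL family then join them to coenzyme A, which traps them in the cell and commits them to oxidation, storage or membrane lipids. Red, oxidative muscle is known for high levels of FABP3 and CD36, and many of these genes are known targets of the peroxisome proliferator-activated receptors (PPAR), whose activity RIP140 can repress.

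Values are FPKM (fragments per kilobase of transcript, scaled to library size), a unit that accounts for transcript length so that levels can be compared between genes. The number of fragments per library is unknown, and no counting interval can be given. Summed over all genes, FPKM ranged from 969144 to 1288040 per library, and the share of mtDNA-encoded genes was 45.4% to 50.7% in WT control and 58.6% and 60.9% in the libraries labelled skmNrip1-/-. The targeted gene, Nrip1, had FPKM of 4.64, 7.69 and 6.55 in WT control replicates 1 to 3, and 25.3 and 22.5 in replicates 1 and 2 labelled skmNrip1-/-. This runs against a knockout, and with 1 value a gene the deleted exon cannot be told apart from the other exons. For this mouse line, the study reported Nrip1 expression and a RIP140 Western blot in heart and gastrocnemius as a check of the knockout. Those measurements were not of these TA libraries. Libraries are named as labelled, and every direction given rests on those labels. Myofibre markers were abundant in all 5 libraries, as Acta1, the skeletal actin gene, ranged from 14369 to 21925 FPKM.

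Fabp3 was the 1 gene of the 10 whose rise passed the test across all genes. Its FPKM was 483, 533 and 461 in WT control and 1889.6 and 1841 in the libraries labelled skmNrip1-/-. Both of the latter lay far above every WT control library, the lower of them 3.46 times the highest control. The means were 492 ± 36.5 (SD, n = 3) and 1865 ± 34.7 (SD, n = 2), a fold change of 3.79. On the log2 scale the difference was 1.92 (standard error 0.12, 95% interval 1.64 to 2.21, adjusted p = 0.00293 from limma). Among all genes of the table, Fabp3 stood at rank 146, 107 and 136 in WT control, and at rank 40 and 39 in the libraries labelled skmNrip1-/-. Without skmNrip1-/- replicate 1 or replicate 2, the difference stayed at 1.90 and 1.94, but with a single library in that group the adjusted p from limma was 0.0506 and 0.0531.

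**Figure D1:**
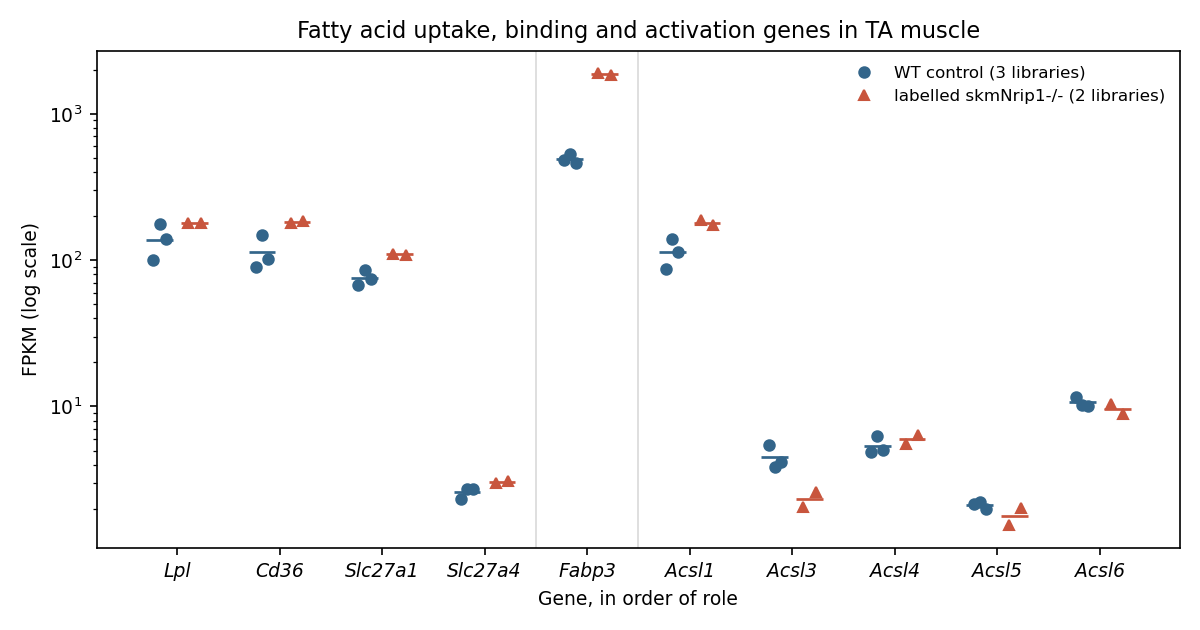
FPKM on a log axis of the 10 genes in each library, with circles for the 3 WT control libraries, triangles for the 2 libraries labelled skmNrip1-/- and a short line at each group mean. Fabp3 sits at 461 to 533 FPKM in WT control and at 1841 and 1889.6 in the others, while the Acsl3 triangles lie below all 3 circles.

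Fabp3 (ENSMUSG00000028773) lies on the plus strand of chromosome 4, from 130308595 to 130315463 on GRCm38, and its single annotated transcript has 4 exons and 823 nucleotides. Zcchc17 and Gm10570 overlap it on the other strand, and the counting is not stated to use strand, so fragments from the overlap cannot be told apart. No FPKM was given for Gm10570, so its level is unknown. Zcchc17 itself was at 6.26 to 8.07 FPKM, with a log2 difference of -0.10 (adjusted p = 0.839 from limma). Fabp3 also has an annotated pseudogene copy, Fabp3-ps1, with which it may share fragments. That copy was at 0.120 to 1.06 FPKM in WT control and at 2.47 and 2.91 in the libraries labelled skmNrip1-/-, a small fraction of the Fabp3 level.

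Promoter bases are shown for 3 of the genes: Fabp3, the gene that passed the test, Cd36, whose window holds a nuclear receptor half-site, and Acsl3, whose values lay lowest against WT control. They come from RefSeq on GRCm38.p6, 5′ to 3′ on the strand of the gene, up to 250 bases before the RefSeq start and without bases that GENCODE M21 places in an exon. Capitals mark the half-site AGGTCA, or its reverse complement, to which PPAR and other nuclear receptors are known to bind. The windows are chr4:130308488-130308594 on the plus strand, chr5:17835897-17836146 on the minus strand and chr1:78657575-78657824 on the plus strand.
Fabp3: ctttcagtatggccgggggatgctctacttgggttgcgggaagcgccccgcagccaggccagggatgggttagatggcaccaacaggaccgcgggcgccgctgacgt
Cd36: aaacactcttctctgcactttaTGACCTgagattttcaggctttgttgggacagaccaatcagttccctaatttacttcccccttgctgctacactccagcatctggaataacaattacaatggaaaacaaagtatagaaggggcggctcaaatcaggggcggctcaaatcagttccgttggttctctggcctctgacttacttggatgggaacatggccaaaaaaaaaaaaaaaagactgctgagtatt
Acsl3: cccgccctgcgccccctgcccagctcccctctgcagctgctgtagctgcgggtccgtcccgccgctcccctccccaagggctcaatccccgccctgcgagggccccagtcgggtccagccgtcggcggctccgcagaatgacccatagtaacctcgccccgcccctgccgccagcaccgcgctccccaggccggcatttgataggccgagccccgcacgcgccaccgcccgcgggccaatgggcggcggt

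RefSeq promoters, each of 250 bases before and 50 bases after a start, were found for 9 of the 10 genes, in 14 entries. On either strand, AGGTCA was present in 2 of the 14 entries, those of Cd36 and Acsl6, beside 16.3% of all 32851 promoters. The direct repeat AGGTCANAGGTCA was in 0 of the 14 (0.0396% of all promoters) and TATAAA in 0 (13.6%). TCAAGGTCA, an extended half-site of estrogen-related receptors that includes AGGTCA, was in 1 entry, of Acsl6 (0.423%). Neither half-site motif was in the Fabp3 window, which says only that these letters are not in these bases.

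A gene was called where the limma adjusted p reached 0.05 with a change of 1.2-fold or more. Of the 10 genes, 1 was called higher (0.37% of all genes tested) and 0 were called lower (0.0823%), or 1 in either direction (0.453%). The call was Fabp3, lost by a small margin without either library labelled skmNrip1-/-, while Cd36 joined it without WT control replicate 2. At an unadjusted p up to 0.05, 4 genes were higher (6.57% of all genes tested) and 1 was lower (5.33%). These were Fabp3, Cd36, Slc27a1 and Acsl1, and, lower, Acsl3. In 6 genes both libraries labelled skmNrip1-/- lay above every WT control library (15.8%), in Acsl3 both lay below (14.4%), which makes 7 without overlap (30.2%), and in Acsl4, Acsl5 and Acsl6 the groups overlapped. The median log2 difference over the 10 genes was 0.32, beside -0.00054 over all genes tested, and 0.17 without WT control replicate 1. When each library was rescaled to the same FPKM sum (TPM), the median over all genes moved to -0.29 and that over the 10 genes to 0.024, which is 0.32 above it. Slc27a4 and Acsl4 then changed sign, and Acsl3 was called lower. The differences were 0.41 for Cd36, 0.39 for Acsl1, 0.24 for Slc27a1 and 0.11 for Lpl. Without mtDNA-encoded genes in the sum they were, in the same order, 0.79, 0.77, 0.61 and 0.49. No gene of the 10 changed sign there, and only Fabp3 was called.

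**Figure D2:**
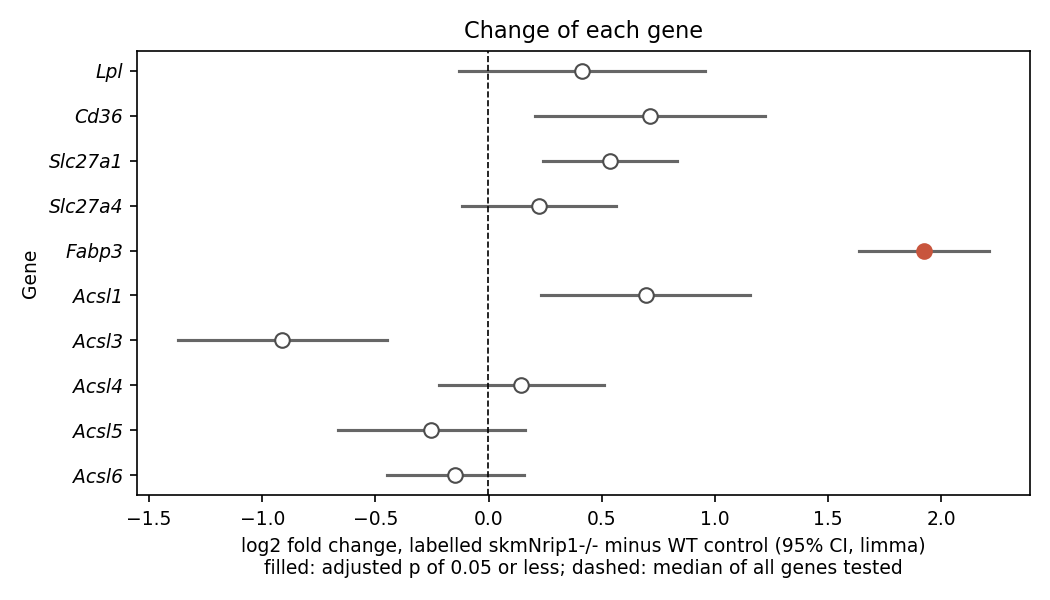
Log2 fold change of each gene, labelled skmNrip1-/- minus WT control, with the 95% interval from limma, filled where the adjusted p was 0.05 or less and a dashed line at the median of all genes tested. Only Fabp3 is filled, at 1.92, and the intervals of Cd36, Slc27a1, Acsl1 and Acsl3 do not reach the dashed line.

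Lpl, which encodes lipoprotein lipase, had FPKM of 99.7, 176 and 139 in WT control and 179 in each library labelled skmNrip1-/-. The highest control almost reached the other group. The log2 difference was 0.41 (standard error 0.23, 95% interval -0.13 to 0.96, adjusted p = 0.553 from limma), so a difference of that size was within the spread between controls, and neither a rise nor an equal level was shown. Lpl (ENSMUSG00000015568) lies on chromosome 8, from 68880491 to 68907448.

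Partners of lipoprotein lipase gave no call. Of 13 listed genes 10 were tested, with 4 above and 6 below 0 and a median of -0.10. Gpihbp1, which holds the enzyme on the capillary endothelium, was at 44.7 to 65.9 FPKM in WT control and at 49.9 and 42.5 in the others. Angptl4, a secreted inhibitor of the enzyme, had the largest difference of the list, 0.52 (standard error 0.57), with 0.196, 0.789 and 1.03 FPKM in WT control and 0.800 and 0.914 in the libraries labelled skmNrip1-/-. Apoc2, its apolipoprotein activator, had the smallest, -0.42 (standard error 0.42).

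Cd36 encodes a membrane glycoprotein that takes up long-chain fatty acids. Its FPKM was 90.1, 149 and 101 in WT control and 179 and 185 in the libraries labelled skmNrip1-/-. The groups did not overlap, but the controls spread by a factor of 1.65. The log2 difference was 0.71 (standard error 0.21, 95% interval 0.21 to 1.22), and it did not pass adjustment (adjusted p = 0.279 from limma). Without WT control replicate 2, the highest control, the difference was 0.93 and passed (adjusted p = 0.0456 from limma). Cd36 (ENSMUSG00000002944) lies on the minus strand of chromosome 5, from 17781690 to 17888801, and has 6 annotated transcripts.

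Slc27a1 encodes FATP1, the transport protein typical of muscle and fat, and Slc27a4 encodes FATP4. Slc27a1 had FPKM of 67.9, 85.2 and 74.3 in WT control and 110.3 and 108 in the libraries labelled skmNrip1-/-. It had the smallest standard error of the genes that missed the adjusted threshold, with a log2 difference of 0.54 (standard error 0.12, 95% interval 0.24 to 0.83, adjusted p = 0.187 from limma). Slc27a4 was low, at 2.33, 2.73 and 2.75 FPKM in WT control and 2.98 and 3.12 in the others. Its log2 difference was 0.22 (standard error 0.14, 95% interval -0.11 to 0.56), and -0.065 after rescaling to TPM. The log2 ratio of Slc27a1 to Slc27a4 within a library was 4.86 ± 0.10 (SD, n = 3) in WT control and 5.16 ± 0.06 (SD, n = 2) in the other group. The ratio was higher in both than in any control, by 0.30 on average. The exact permutation test gave a two-sided p of 0.2. That is the smallest this test can give with 10 splits, as it doubles the one-sided p.

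Other FATP genes were low and none was called. Of 4 listed, 3 were tested, from -0.22 for Slc27a2 to 0.41 for Slc27a3. In the list of genes that bring CD36 to the surface, all 14 were tested. An unadjusted p up to 0.05 was found for 2 on the higher side (6.57% of all genes tested), Got2 and Rab14. It was also found for 2 on the lower (5.33%), Sort1 and Cavin1. The largest log2 difference was 0.44, for Got2 (standard error 0.15), which encodes mitochondrial aspartate aminotransferase, known at the plasma membrane as FABPpm. The lowest was -0.42, for Sort1 (standard error 0.12), which encodes the sorting receptor sortilin.

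The rise of Fabp3 was set beside the other binding proteins. Of 9 listed genes 3 were tested and 0 were called, with the largest difference, 0.14, for Fabp1, the liver form. Fabp4, the adipocyte and endothelial form, had FPKM of 187, 149.6 and 120.2 in WT control and 145 and 150.3 in those labelled skmNrip1-/-. Its log2 difference was -0.021 (standard error 0.19, 95% interval -0.47 to 0.42). The latter values both lay within the range of the controls. The log2 ratio of Fabp3 to Fabp4 was 1.37, 1.83 and 1.94 in WT control and 3.70 and 3.61 in the others. The log2 ratio of Cd36 to Fabp3 was -2.42, -1.84 and -2.19 in WT control and -3.40 and -3.32 in the others, a difference of -1.21. In both ratios the groups were apart. The exact permutation p was 0.2 each, the smallest this test can give here, and 0.2 after Benjamini-Hochberg adjustment over the 8 relations tested.

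The profile over the 5 libraries most like that of Fabp3 was sought among all genes tested, by the root mean square difference in centred log2 values. The nearest were Ackr3 at 0.0724, Tmem37 at 0.0939, Ptp4a1 (ENSMUSG00000117310) at 0.106, Cds1 at 0.124 and Igsf8 at 0.151. With 5 libraries the measure picks genes whose group difference is near that of Fabp3, here 1.74 for Igsf8 to 2.02 for Tmem37. Shared regulation was not tested. Cds1, which encodes a CDP-diacylglycerol synthase of phospholipid synthesis, went from 0.627 to 0.813 FPKM in WT control to 3.22 and 2.65 in the libraries labelled skmNrip1-/-. All 5 had lower levels than Fabp3, from 0.627 to 82.9 FPKM.

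Among the activation genes, Acsl1 and Acsl3 stood on opposite sides. Acsl1, the main synthetase of oxidative tissues, had FPKM of 87.5, 139 and 113 in WT control and 187 and 173 in the libraries labelled skmNrip1-/-. Both were above every control. Its log2 difference was 0.69 (standard error 0.19, 95% interval 0.23 to 1.16, adjusted p = 0.252 from limma). Acsl3, an enzyme of the endoplasmic reticulum and lipid droplets, had FPKM of 5.45, 3.85 and 4.17 in WT control and 2.06 and 2.60 in the others. Both were below every control, at 51.9% of the control mean on average. Its log2 difference was -0.91 (standard error 0.19, 95% interval -1.37 to -0.45, adjusted p = 0.154 from limma), and -1.19 after rescaling to TPM (adjusted p = 0.0464 from limma). That rescaling also moved the median over all genes to -0.29. Without mtDNA-encoded genes in the sum, the Acsl3 difference was -0.85 (adjusted p = 0.186 from limma). Utp14b, which overlaps Acsl3 on the same strand, was at most 0.233 FPKM in any library.

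The other 3 synthetases overlapped between the groups. Acsl4, which prefers arachidonic acid, had FPKM of 4.91, 6.29 and 5.04 in WT control and 5.56 and 6.38 in the other group, with a log2 interval of -0.22 to 0.51. Acsl5 had 2.16, 2.23 and 1.99 against 1.54 and 2.02, with an interval of -0.67 to 0.16. Acsl6 had 11.6, 10.3 and 10.1 against 10.4 and 8.87, with an interval of -0.45 to 0.16. None of these intervals shows that the level stayed the same, but each leaves out a change as large as that of Fabp3. The rescaling to TPM took Acsl4 to -0.15.

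Summed over the 5 Acsl genes, FPKM was 112, 161 and 135 in WT control and 207 and 193 in the libraries labelled skmNrip1-/-. Acsl1 made up 78.4%, 86.0% and 84.2% of that sum in WT control and 90.5% and 89.7% in the others. Its share was thus higher in both than in any control, by 7.27 percentage points on average, and the shares of the other 4 were lower in both. Acsl3 held 3.45% ± 1.28 (SD, n = 3) in WT control and 1.17% ± 0.249 (SD, n = 2) in the other group, and Acsl6 held 8.10% ± 2.06 and 4.82% ± 0.315. Shares sum to 100, so a larger one lowers the rest. For each of the 5 shares the exact permutation p was 0.2, the smallest this test can give here.

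**Figure D3:**
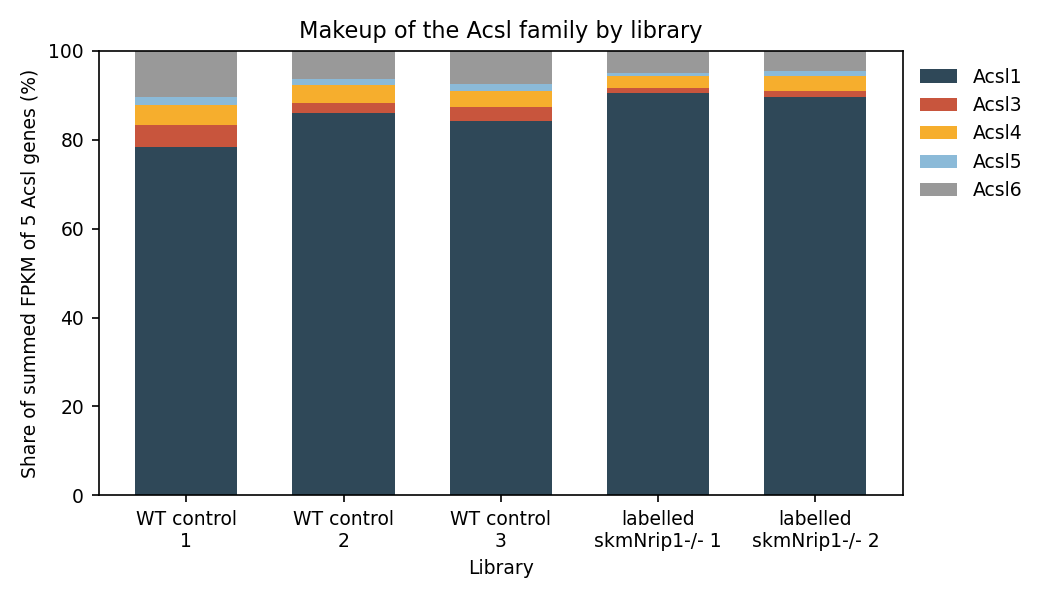
Share of each Acsl gene in the summed FPKM of the 5 Acsl genes, as stacked bars from 0 to 100% for each of the 5 libraries. The Acsl1 part is 78.4% to 86.0% in WT control and 89.7% to 90.5% in the libraries labelled skmNrip1-/-.

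Other acyl-CoA synthetases and acyl-CoA binding proteins gave no call. Of 13 further synthetases 8 were tested, from -0.63 for Acsm2 (standard error 0.27) to 0.37 for Acsf3, a mitochondrial malonyl-CoA synthetase (standard error 0.17), with 4 above and 4 below 0. All 7 acyl-CoA binding proteins were tested. Dbi, the acyl-CoA binding protein of the cytosol, had the largest difference, 0.17 (standard error 0.15), and Acbd4 the lowest, -0.51 (standard error 0.11, adjusted p = 0.17 from limma). Acbd4 had FPKM of 12.5, 12.3 and 11.0 in WT control and 8.52 and 8.20 in the libraries labelled skmNrip1-/-, below every control. It was called lower after rescaling to TPM, where the median over all genes was -0.29. Without mtDNA-encoded genes in the sum it was not called.

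Over the 6 lists of partner genes, 45 of 60 were tested and 0 were called by limma, while 2 on the higher side (6.57% of all genes tested) and 3 on the lower (5.33%) had an unadjusted p up to 0.05. The groups did not overlap in 9 on the higher side (15.8%) and 6 on the lower (14.4%). Their median log2 difference was -0.011, beside 0.32 for the 10 genes.

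**Figure D4:**
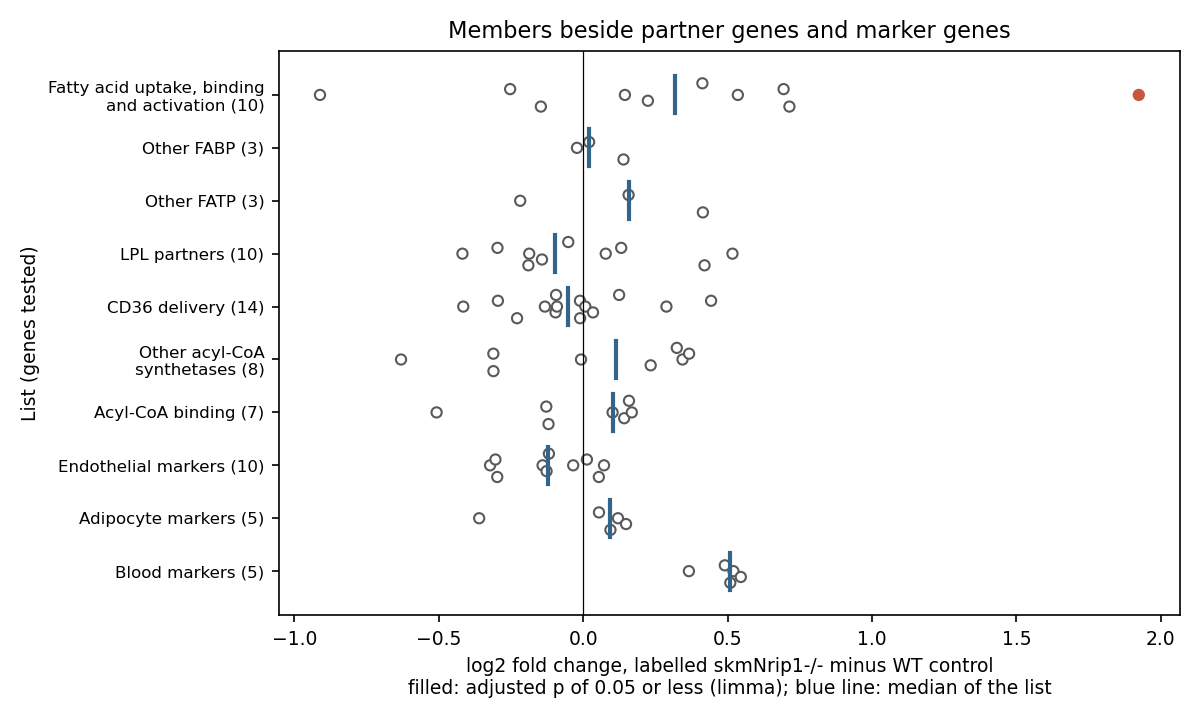
Log2 fold change, labelled skmNrip1-/- minus WT control, of the 10 genes, of 6 lists of partner genes and of 3 lists of markers, 1 point a gene, filled where the adjusted p was 0.05 or less, with a blue line at each median. Only Fabp3 is filled, and the blood markers lie together at 0.37 to 0.55. The slow and oxidative fibre markers are not drawn, among them Myl2 at 3.46, which was not called.

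**Figure D5:**
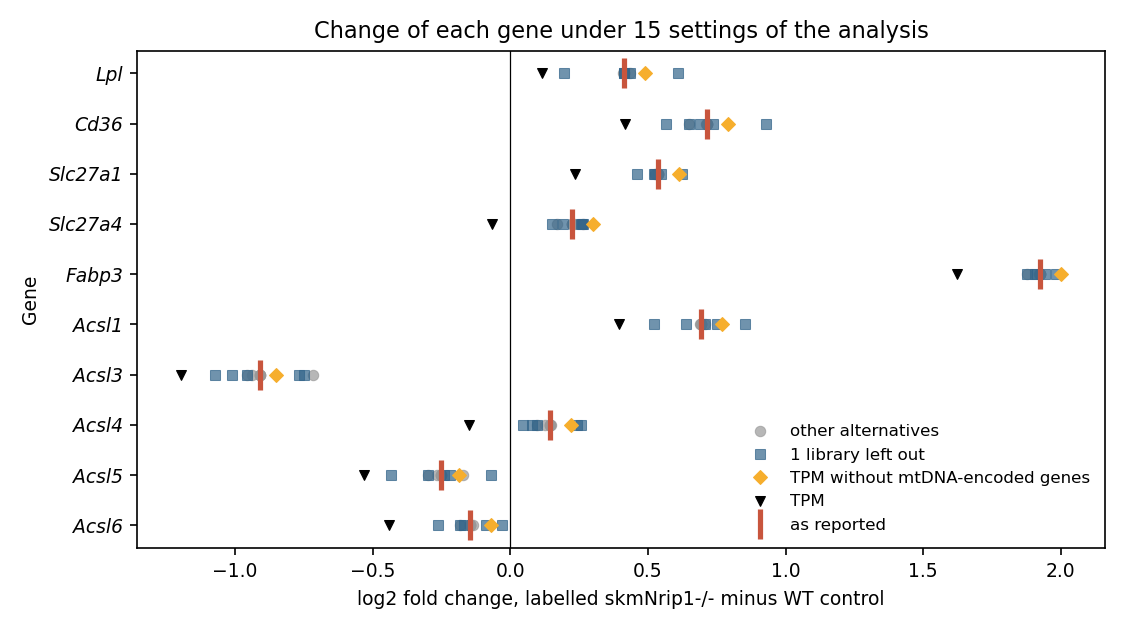
Log2 fold change of each of the 10 genes under 15 settings, as reported (bar), after leaving out 1 library (squares), after rescaling to TPM (triangles) or to TPM without mtDNA-encoded genes (diamonds), and under the other alternatives (circles). Fabp3 stays at 1.62 or above, and only the TPM triangles of Slc27a4 and Acsl4 cross 0.

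In order of level, the 10 genes ran in WT control from Fabp3 through Lpl, Cd36, Acsl1, Slc27a1, Acsl6, Acsl4, Acsl3 and Slc27a4 to Acsl5. Lpl did not differ from Cd36 beyond the range of the libraries, nor Cd36 from Acsl1, nor Acsl4 from Acsl3. In the libraries labelled skmNrip1-/-, Lpl came after Cd36 and Acsl1, with ranges that overlapped again, and Acsl3 came after Slc27a4. Fabp3 made up 48.1% to 56.5% of the summed FPKM of the 10 genes in WT control and 73.4% and 73.6% in the others. In Cd36, Lpl, Slc27a1 and Acsl1, WT control replicate 1 was the lowest control and replicate 2 the highest.

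Cd36, Lpl and Fabp4 are also expressed in endothelial cells or adipocytes, and in bulk muscle fewer cells of a type and less RNA per cell cannot be told apart. Of 10 endothelial markers 3 were above 0 and 7 below, and their summed FPKM was 141 to 154 in WT control and 131 to 133 in the libraries labelled skmNrip1-/-. Pecam1 had FPKM of 24.9 to 26.6 in WT control and 23.9 and 26.0 in the others, and Cdh5 had 23.7 to 26.5 against 20.9 and 24.6. The 7 adipocyte markers summed to 14.8 to 20.5 and to 19.5 to 20.1 FPKM, and Adipoq was at 0.627 to 1.35 FPKM in all libraries. The 7 macrophage markers summed to 20.1 to 37.9 and to 24.6 to 31.5. No marker of these lists was at 0 in a library. The sums overlapped between the groups, apart from the endothelial ones, which were lower in both libraries labelled skmNrip1-/-. That gap rested on Egfl7, without which the endothelial sum was 100.4 to 107 FPKM in WT control and 89.9 and 103 in the others. In these 3 lists 0 genes were called by limma and 0 had an unadjusted p up to 0.05, and the differences furthest from 0 were -0.32 for Cldn5, -0.36 for Plin1 and 0.39 for Mrc1.

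Blood markers leaned to the higher side. All 5 had log2 differences above 0, from 0.37 for Alas2 to 0.55 for Hbb-bt, and 3 reached an unadjusted p of 0.05, with 0 called. Their summed FPKM was 511 to 764 in WT control and 827 and 996 in the libraries labelled skmNrip1-/-, and their part in the results for the 10 genes was not tested. Summed myofibre markers were at 77027 to 105259 FPKM in WT control and at 74942 and 71850 in the others, and summed slow and oxidative fibre markers at 4830 to 6599 against 8269 and 8213. The slow and oxidative sum was carried by Mb, the myoglobin gene, and without it the other 8 summed to 353, 501 and 1442 FPKM in WT control and to 505 and 549 in the others, which overlap. Over the 9 genes the median log2 difference was 0.0027, with 5 above and 4 below 0. The myofibre sum stayed apart without Tnnt3, its most abundant gene, and its part in the results was not tested. Of the 9 slow and oxidative markers 0 were called. An unadjusted p up to 0.05 was found for Mb and Myl2 on the higher side (6.57% of all genes tested) and Myl3 on the lower (5.33%). Mb had FPKM of 4522, 4329 and 5157 in WT control and 7764 and 7664 in the others (log2 difference 0.73, adjusted p = 0.16 from limma). Myl2, a slow myosin light chain gene, had 2.03, 1.85 and 9.68 against 42.1 and 33.6 (log2 difference 3.46, standard error 0.67, adjusted p = 0.127 from limma). Myl3, on the lower side, had 89.6, 124 and 285 against 54.1 and 71.3 (log2 difference -1.24, adjusted p = 0.359 from limma). Myh7, the slow myosin, was at 0.648 to 0.751 against 1.72 and 0.449, and Myh2, of type 2A fibres, had 223, 333 and 1102 against 363 and 406, so the libraries overlapped for both.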

How the data were processed

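RNA from TA muscle was extracted with the RNeasy kit and DNase, and libraries were made with the NEBNext Ultra RNA kit, per the labels. The authors quantified reads with Salmon 1.10.2 on the mm10 reference (the same sequence as GRCm38), and summarized them to genes with tximport. They deposited 1 table with an FPKM value for each gene and library. How the FPKM were computed, the annotation release and the use of strand are not given in the sources used here. Libraries were mapped to groups by their labels. The log2 fold changes and adjusted p-values deposited by the authors, from DESeq2 1.44.0, fill 2 columns and were not used.

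Genes whose mean reached 0.5 FPKM were compared in limma 3.58.1 (R 4.3.3, eBayes with trend). The model took log2(FPKM + 0.1) of the 5 libraries, with group as its only term and Benjamini-Hochberg adjustment over 12148 genes. On this scale fold changes of low genes are understated. Calls needed an adjusted p no higher than 0.05 and a change of 1.2-fold or more, as in the study. The FPKM are not counts, so no count model was run. Shares and ratios were compared with exact permutation tests (scipy 1.17.1), whose two-sided p doubles the one-sided p. Positions and overlaps came from GENCODE M21, which holds 16996 of the 17015 gene IDs. The limma step was tested on simulated data.

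The 10 genes and all lists were chosen with earlier results of these data known. Named were the 10 genes, Nrip1, called partner genes, the partner genes with the largest and smallest difference of each list, Fabp4, Gpihbp1 and Angptl4, the first markers of a list and those with the largest difference, and the 5 genes nearest to Fabp3. The markers of 1 further cell type are not reported here. Genes that overlap a member were named for that, and Mb, Myl3, Egfl7, Tnnt3, Alas2, Rab14 and Cavin1 after their values were seen. Alternatives tried were another pseudocount (1 or 0.01) or FPKM minimum (1 or none), rescaling to TPM with and without mtDNA-encoded genes, eBayes without trend or robust, a replicate block, leaving out each library, no fold threshold and an adjusted p of 0.01. Marker sums without the most abundant gene of a list were added after seeing the data. So were the counts, under the alternatives, of the 10 genes whose libraries did not overlap.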

Additional observations from a re-analysis of the deposited data

How the results depend on the processing

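The rise of Fabp3 kept its direction under 14 alternatives, with a log2 difference of 1.62 or more, and stayed called in 12 of them. The FPKM minimum and the eBayes options could not change that difference, only its adjusted p. The replicate block gave the same difference, 1.88, as leaving out WT control replicate 3. Leaving out 1 library at a time gave 0 to 2 of the 10 genes called higher, 6 to 55 genes called higher and 3 to 16 lower over all genes, a Nrip1 difference of 1.74 to 2.09, and 1 to 2 of the 10 genes below every control, beside 19.2% to 26.3% of all genes tested. Leaving out a library labelled skmNrip1-/- left 1 in its group, which was assumed to vary like the controls. Nrip1 was no longer called without WT control replicate 3 or either library labelled skmNrip1-/-. Without WT control replicate 1 the median over the 10 genes was 0.17. After rescaling to TPM, 30 genes were called higher and 63 lower, against 45 and 10 as reported, with 1 of the 10 genes (Acsl3) and 1 partner gene (Acbd4) called lower, and the median of the 10 genes at 0.024. Slc27a4 reversed to -0.065 and Acsl4 to -0.15, and the libraries of 3 of the 10 genes were apart on the higher side (2.8% of all genes tested) and 3 on the lower (49.6%), an alternative chosen after seeing the data. Without mtDNA-encoded genes in the sum, the median was 0.40 and no gene of the 10 changed sign. With eBayes without trend, 22 genes were called higher and 3 lower, and Nrip1, at 1.94, was no longer called. With the adjusted p threshold at 0.01, 14 were higher and 3 lower. Replicate numbers 1 and 2 are shared by the groups but mark different mice, and deviations of same-numbered libraries correlated at 0.0647 and 0.0952 across genes. With the number as a replicate block, 18 genes were called higher and 4 lower, Fabp3 stayed called at 1.88 (adjusted p = 0.044 from limma), and Nrip1, at 1.98, was not called. The cause of these shifts was not tested. The depth is unknown, so its part in the width of the intervals cannot be given.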

Other observations

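Over 140 values of the 10 genes under the alternatives, 134 kept their direction and their side of the threshold. Of the rest, 2 lost a call (Fabp3), 2 gained one (Cd36 and Acsl3) and 2 reversed (Slc27a4 and Acsl4). Only Fabp3 was called as reported, so for the other genes keeping their side meant staying uncalled. Direction could not change under another FPKM minimum or eBayes option. The replicate block repeated the differences found without WT control replicate 3.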
